A study of Mus musculus with 4 samples.

Results

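The genes described here encode the mouse proteasome: the subunits of its 20S core, its 19S regulatory cap, its activators and its inhibitor, and the factors that assemble it. They were taken by symbol, as every gene named Psma, Psmb, Psmc, Psmd, Psme, Psmf or Psmg with a number, plus Pomp, and 49 of the 18256 counted genes met that rule. They were read in wild-type (WT) mouse bone marrow macrophages, cultured for 7 days with recombinant macrophage colony-stimulating factor (MCSF) at 20 ng/ml with a medium change every 48 h. For the last 24 h the cells were either kept in MCSF alone (M0, 2 libraries) or given 20 ng/ml interferon-γ (IFN-γ) and 100 ng/ml lipopolysaccharide (LPS, a bacterial cell wall component), the pro-inflammatory state called M1 (2 libraries). The description does not say whether the M1 medium also held MCSF, and the strain, age and number of animals are not given in the sources used here. Nothing states that the libraries of a group came from separate cultures or animals, so the spread that the p-values rest on may be technical.

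The proteasome is a barrel-shaped protease that degrades ubiquitin-tagged proteins. Its core is a stack of rings: outer rings of alpha subunits gate the entrance, and inner rings of beta subunits hold the protease sites. Psmb5, Psmb6 and Psmb7 carry the chymotrypsin-like, caspase-like and trypsin-like sites. In the immunoproteasome, known from lymphocytes and from cells exposed to interferon, Psmb8, Psmb9 and Psmb10 take the places of Psmb5, Psmb6 and Psmb7 when new particles are assembled. The peptides it yields feed MHC class I presentation, and the PA28αβ activator made of Psme1 and Psme2 opens the gate of the core.

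Psmb8 and Psmb9 lie on either side of the peptide transporter gene Tap1 within the MHC region of chromosome 17 (GRCm38, the assembly also called mm10; GENCODE M21 loci). Psmb9 occupies chr17:34181987-34187764 on the minus strand, Tap1 chr17:34187553-34197225 on the plus strand and Psmb8 chr17:34197721-34201454 on the plus strand. RefSeq promoter windows on GRCm38.p6, from 250 bases before the transcript start to 50 bases after it, were found for 41 of the 49 genes. The windows of the catalytic pairs Psmb8 and Psmb5, and Psmb9 and Psmb6, and of the activator Psme1 are shown, written 5′ to 3′ on the gene's own strand. Of the remaining pair, the window of Psmb10 is not shown and none was found for Psmb7. In Psmb8 (chr17:34197945-34198244, plus strand) the capitals mark a match to TTCNNNGAA, the interferon-γ-activated site (GAS). In Psmb9 (chr17:34187281-34187580, minus strand) they mark the 28 bases that overlap an exon of Tap1, which is read from the other strand. In Psme1 (chr14:55578244-55578543, plus strand) they mark a match to the interferon-stimulated response element (ISRE) core, a direct repeat of GAAA with any 2 bases between, read on the opposite strand. In Psmb5 (chr14:54617946-54618245, minus strand) and Psmb6 (chr11:70525107-70525406, plus strand) they mark TGACNNNGC, the core of the antioxidant response element (ARE) that the Nfe2l1 and Nfe2l2 factors bind.
Psmb8: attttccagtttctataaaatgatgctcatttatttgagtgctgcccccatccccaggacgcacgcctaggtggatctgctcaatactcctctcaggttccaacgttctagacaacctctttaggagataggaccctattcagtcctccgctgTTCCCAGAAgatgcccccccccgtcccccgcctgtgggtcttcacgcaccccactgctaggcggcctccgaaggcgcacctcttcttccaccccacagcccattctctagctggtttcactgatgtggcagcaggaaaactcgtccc
Psmb9: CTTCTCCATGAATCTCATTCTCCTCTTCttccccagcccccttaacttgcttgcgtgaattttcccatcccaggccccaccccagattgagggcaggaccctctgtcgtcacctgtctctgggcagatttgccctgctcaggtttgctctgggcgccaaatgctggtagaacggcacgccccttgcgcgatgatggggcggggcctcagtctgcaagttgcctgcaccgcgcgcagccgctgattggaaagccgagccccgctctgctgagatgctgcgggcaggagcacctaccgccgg
Psme1: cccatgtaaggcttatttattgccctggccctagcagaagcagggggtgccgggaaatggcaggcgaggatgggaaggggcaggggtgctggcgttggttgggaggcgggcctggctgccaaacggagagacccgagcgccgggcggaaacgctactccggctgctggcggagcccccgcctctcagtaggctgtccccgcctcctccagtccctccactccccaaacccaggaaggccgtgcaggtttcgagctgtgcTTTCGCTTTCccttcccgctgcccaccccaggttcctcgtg
Psmb5: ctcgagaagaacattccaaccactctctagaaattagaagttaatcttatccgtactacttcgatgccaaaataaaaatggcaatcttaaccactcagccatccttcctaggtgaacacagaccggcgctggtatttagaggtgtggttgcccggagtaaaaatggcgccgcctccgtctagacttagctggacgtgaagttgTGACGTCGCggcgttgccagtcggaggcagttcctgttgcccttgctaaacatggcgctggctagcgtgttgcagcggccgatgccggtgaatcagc
Psmb6: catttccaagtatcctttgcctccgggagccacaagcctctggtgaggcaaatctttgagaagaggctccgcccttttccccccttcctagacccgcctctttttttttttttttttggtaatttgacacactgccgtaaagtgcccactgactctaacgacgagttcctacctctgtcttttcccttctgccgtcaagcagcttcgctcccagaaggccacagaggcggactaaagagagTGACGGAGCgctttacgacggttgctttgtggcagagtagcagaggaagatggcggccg

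Each motif was searched on both strands of the windows. The share over all windows is per window, while the 41 genes had 44 windows and a gene counted when any of its windows matched. For each motif the number of matching windows among the 44 equalled the number of genes given. TTCNNNGAA stood in 8.30% of all 32851 RefSeq windows and in the windows of 3 of the 41 genes: Psmb8, Psmd2 and Psmg1. The ISRE core stood in 3.44% of all windows and in those of 5 of the 41 genes: Psme1, Psmb3, Psmd4, Psmd9 and Psmg4. TGACNNNGC stood in 12.4% of all windows and in those of 6 of the 41: Psmb5, Psmb6, Psmc6, Psmd9, Psmd12 and Psme4. A degenerate κB motif, the site of NF-κB, stood in 8.46% of all windows and in those of 6 of the 41: Psma6, Psma7, Psmd11, Psmd12, Psmd13 and Psme4. The windows of Psmb9 and Psmb10 held no match to any of the 4 patterns. Those of Psmb8, Psmb9 and Psme1 lie wholly inside the GENCODE loci of these genes, so sequence upstream of those windows was not searched. A match is a description of letters, not a measured binding site.

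**Figure D1:**
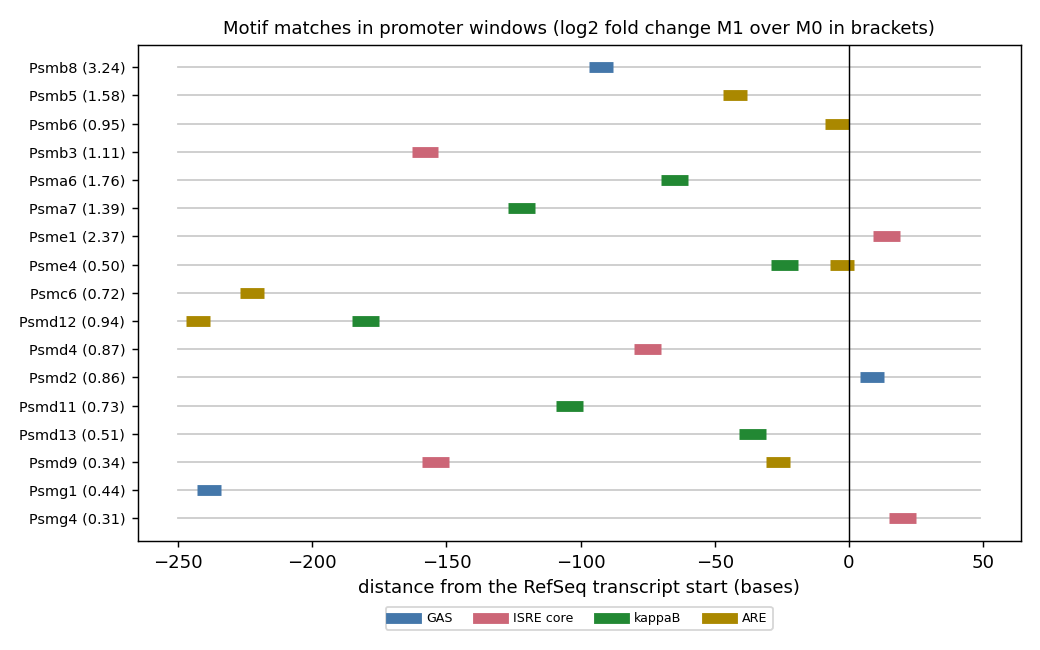
Matches to the GAS, ISRE core, κB and ARE patterns in RefSeq promoter windows of proteasome genes; the x axis is the distance from the transcript start in bases, each grey line is the window of 1 gene with at least 1 match, and the number in brackets is that gene's log2 fold change, M1 over M0. The GAS match of Psmb8 lies at -97 to -89, the ISRE core match of Psme1 at 9 to 18 and the ARE match of Psmb5 at -47 to -39.

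The libraries held between 15921466 and 18987705 counts over all genes. Levels are given as CPM (counts scaled to the library size) on edgeR's effective library size, the total times the TMM factor, and 3 counts corresponded to 0.144 to 0.185 CPM. The labelled cell type was checked against marker genes: all 8 macrophage markers were counted in the files, with a summed level of 20477 and 22750 CPM in M0 and 28405 and 27969 CPM in M1. Lyz2 supplied most of that sum, and 3 of the 8 were called higher and 3, among them Mertk and Cd68, lower. The defining lymphocyte markers Cd3g, Ncr1 and Ms4a1 had 0 counts in every library. Summed levels of the T and NK cell list (7 genes found of 8) ranged from 21.6 to 22.4 CPM in M0 and from 4.80 to 5.23 CPM in M1, and those of the B cell list (5 of 6) from 24.7 to 25.8 and from 7.32 to 11.2 CPM. The dendritic cell list (6 of 6) summed to 8.63 to 10.1 CPM in M0 and 2.40 to 4.43 CPM in M1, and the neutrophil list (8 of 8) to 236 to 248 and 110.0 to 149 CPM. In the dendritic cell list 1 gene (Xcr1) was called higher and 3 lower. In the neutrophil list 1 (Camp) was called higher and 5 lower. The stroma list (6 of 6) summed to 680 to 701 CPM in M0 and 455 to 511 CPM in M1; only Col1a1 and Col1a2 were called lower and the 4 others higher. The erythroid list (3 of 5) stayed under 0.5 CPM in every library. These sums move with the group, and their part in the results was not tested.

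The transcripts of the proteasome rose together in M1. Of the 49 genes, all of which passed the low-count filter, 44 were higher in M1 and 0 lower (edgeR quasi-likelihood test, Benjamini-Hochberg adjusted p under 0.05 over the 12966 genes tested). Among all tested genes 24.2% were called higher and 24.0% lower. At an unadjusted p under 0.05 still 0 were lower, and DESeq2 and limma-voom each called 43 higher and 0 lower. The median log2 fold change of the 49 was 0.93, against -0.02 over all tested genes. Of the 49, 21 were called and at least doubled, against 9.93% of all tested genes. Summed over the 49 genes the level was 3752 and 3975 CPM in M0 and 9166 and 8336 CPM in M1, a ratio of the group means of 2.26. In 46 of the 49, both M1 libraries lay above both M0 libraries, which held for 37.0% of all tested genes. In 2 (Psma8 and Psmd8) both lay below, against 38.0% of all tested genes. In bulk samples a change in the cells present and a change in RNA per cell cannot be told apart. Without the immunoproteasome subunits Psmb8 to Psmb10 and the activators Psme1, Psme2 and Psme2b, 38 of the remaining 43 were higher, with a median log2 fold change of 0.85.

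The call of 44 depended in part on single libraries: without M0 replicate 1 it was 32, and without M0 replicate 2 it was 36. The 12 calls lost without M0 replicate 1 were those of Psma3, Psma5, Psmb3, Psmc6, Psmd5, Psmd6, Psmd13, Psmd14, Psme3, Psmf1, Psmg2 and Psmg3, and the 8 lost without M0 replicate 2 were those of Psma3, Psma5, Psmc6, Psmd5, Psmd13, Psme3, Psmg2 and Psmg3. The same omissions took the number of all tested genes called higher from 3140 to 1691 and 1832. With library totals in place of TMM factors, which shifted the median of all tested genes by -0.25 on the log2 scale, 40 were higher and 1 (Psmd8) lower. Upper-quartile factors shifted that median by -0.10 and left 41 higher and 1 (Psmd8) lower.

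**Figure D2:**
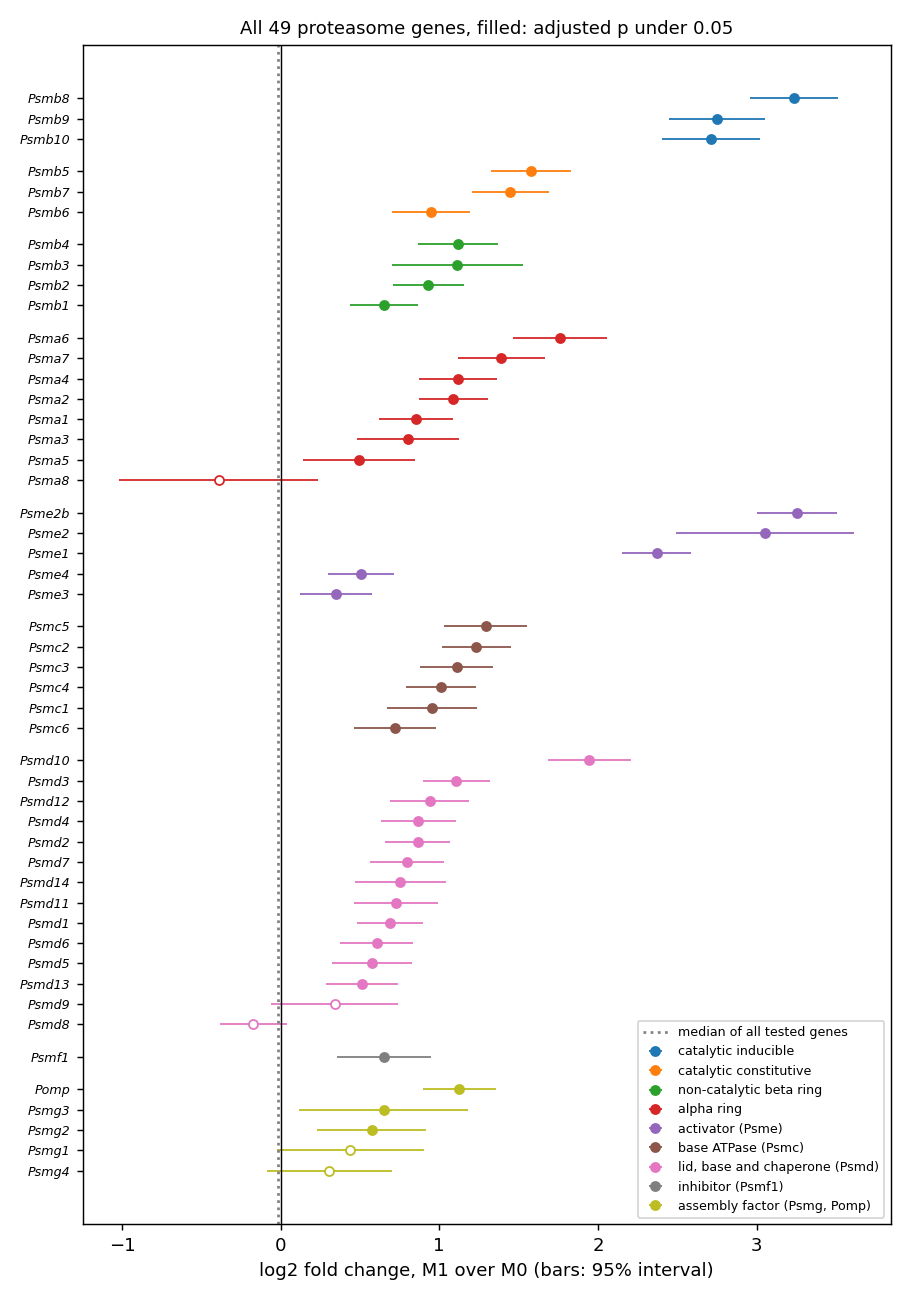
Log2 fold change, M1 over M0, of all 49 proteasome genes by class, with 95% intervals derived from the edgeR test; filled points passed an adjusted p of 0.05, open points did not, and the dotted line is the median of all tested genes (-0.02). The 3 inducible catalytic subunits and the activators Psme1, Psme2 and Psme2b lie between 2.37 and 3.26, and the 43 other genes between -0.39 and 1.94.

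The inducible catalytic subunits carried the largest rises among the core subunits. Psmb8, which replaces the chymotrypsin-like Psmb5, measured 28.7 and 34.2 CPM in the M0 libraries and 315 and 276 CPM in the M1 libraries. Psmb9, which replaces the caspase-like Psmb6, measured 19.3 and 24.6 CPM in M0 and 154 and 141 CPM in M1. Psmb10 (chr8:105935735-105938444, minus strand), which replaces the trypsin-like Psmb7, measured 52.4 and 68.0 CPM in M0 and 425 and 362 CPM in M1. For all 3 both M1 libraries lay far above both M0 libraries, with no overlap. Psmb8 rose 9.42-fold (log2 fold change 3.24, SE 0.13, 95% interval 2.96 to 3.51, edgeR adjusted p = 3.56e-09). Psmb9 rose 6.74-fold (2.75, SE 0.14, 2.45 to 3.05, adjusted p = 2.73e-08). Psmb10 rose 6.55-fold (2.71, SE 0.14, 2.40 to 3.02, adjusted p = 3.64e-08). Their intervals overlap one another, and differences among the 3 rises were not tested. GENCODE places exons of other genes on the opposite strand over 14.7% of the merged exon length of Psmb8 (Gm20496), 5.79% of that of Psmb9 (Tap1), and over 11.8% of Psmb7 (Nek6), 25.5% of Psmd9 (Gm26745) and 10.1% of Psmd13 (Sirt3). Of the longest RefSeq mRNA, Nek6 shared 35.1% with Psmb7, Tap1 15.7% with Psmb9, Gm20496 11.7% with Psmb8 and Sirt3 17.2% with Psmd13. Whether the counting used strand is not given in the sources used here, so reads from such pairs may not be told apart.

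The constitutive catalytic subunits were also higher in M1. Psmb5 (chr14:54614119-54618022, minus strand) measured 42.0 and 45.0 CPM in M0 and 138 and 122 CPM in M1. Psmb7 (chr2:38588036-38644087, minus strand) measured 39.6 and 37.7 CPM in M0 and 108 and 103 CPM in M1. Psmb6 (chr11:70525367-70527858, plus strand) measured 67.6 and 77.9 CPM in M0 and 146 and 135 CPM in M1. Again the groups did not overlap. Psmb5 rose 2.99-fold (log2 fold change 1.58, SE 0.11, 95% interval 1.33 to 1.83, edgeR adjusted p = 6.47e-07), Psmb7 rose 2.73-fold (1.45, SE 0.11, 1.21 to 1.69, adjusted p = 9.55e-07) and Psmb6 rose 1.93-fold (0.95, SE 0.11, 0.70 to 1.19, adjusted p = 3.58e-05). In each pair the interval of the inducible subunit lies wholly above that of its constitutive partner. Summed over the class, the inducible subunits went from 114 ± 18.6 to 837 ± 81.3 CPM (mean ± SD, n = 2 libraries a group) and the constitutive ones from 155 ± 8.03 to 376 ± 23.5 CPM.

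**Figure D3:**
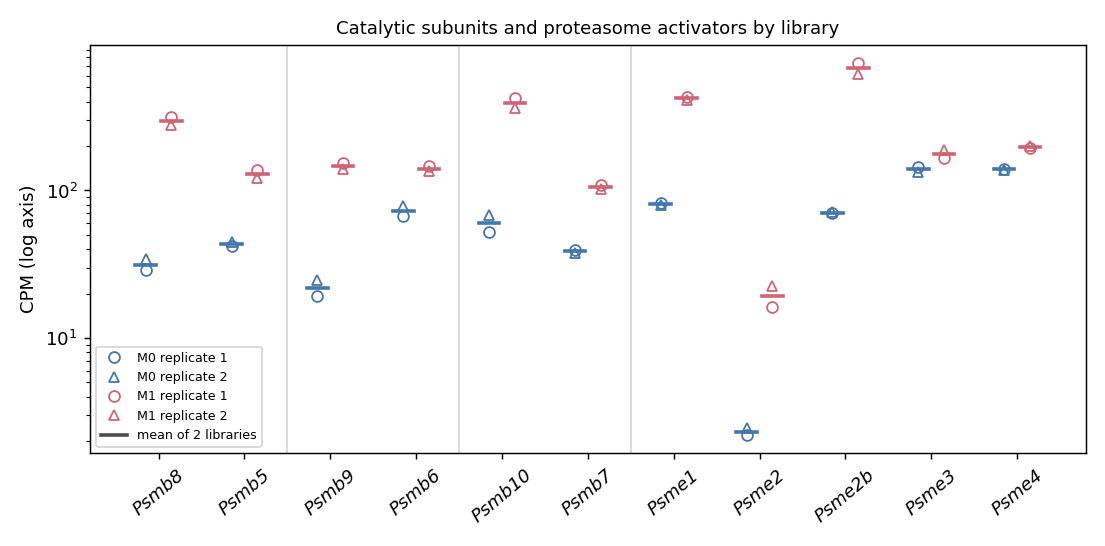
Level in CPM (log axis) of the catalytic subunits, paired by position, and of the 5 activator genes in each library; circles are replicate 1, triangles replicate 2 and lines the mean of the 2 libraries of a group. Psmb8 moves from 28.7 and 34.2 CPM to 315 and 276 CPM while Psmb5, at the same position in the core, moves from 42.0 and 45.0 to 138 and 122 CPM.

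The balance within each pair was then read as the inducible subunit's share of the pair, in counts per length. With the merged exons of each gene as its length, Psmb8 made up 15.3% and 16.8% of the Psmb8 and Psmb5 pair in M0 and 37.7% and 37.6% in M1. Psmb9 made up 12.8% and 13.9% of its pair with Psmb6 in M0 and 35.2% and 34.9% in M1. Psmb10 already made up 72.7% and 78.3% of its pair with Psmb7 in M0 and reached 88.7% and 87.6% in M1. In all 3 pairs the share was higher in both M1 libraries than in either M0 library. The ratio of inducible to constitutive counts was 3.16 times as high in M1 as in M0 for Psmb8 over Psmb5, 3.50 times for Psmb9 over Psmb6 and 2.41 times for Psmb10 over Psmb7, and these factors do not depend on gene length. An exact two-sided permutation test of 2 against 2 libraries gave p = 0.333 for each pair, the smallest value that the design allows.

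The share itself depends strongly on the length that is used, because the merged exons of Psmb8 span 3381 bases and those of Psmb5 899. On the longest RefSeq mRNA (1628 and 899 bases) Psmb8 went from 28.5% to 55.7% of its pair, and on coding length from 40.8% to 68.5%. Whether Psmb8 or Psmb5 was the more abundant transcript in M1 therefore flips with the length: Psmb8 stood at 87.4 and Psmb5 at 145 CPM per kb of merged exons, and at 182 and 145 CPM per kb of mRNA. These levels leave out the reads of Gm3375, a near-identical copy of Psmb5 at another locus, which took 34.1% to 37.2% of their summed counts. With its counts added, Psmb5 measured 210 and 188 CPM in M1. The Psmb8 share on merged exons was then 10.9% in M0 and 28.3% in M1. The order on mRNA length thus depends on these reads too. For Psmb9, the share on the longest mRNA went from 15.1% to 38.3% and on coding length from 24.6% to 53.4%, so its place below or above Psmb6 in M1 flips as well. Psmb10 was above Psmb7 in both groups on each length, at 57.7% and 76.7% of the pair on the longest mRNA and 61.0% and 79.1% on coding length.

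**Figure D4:**
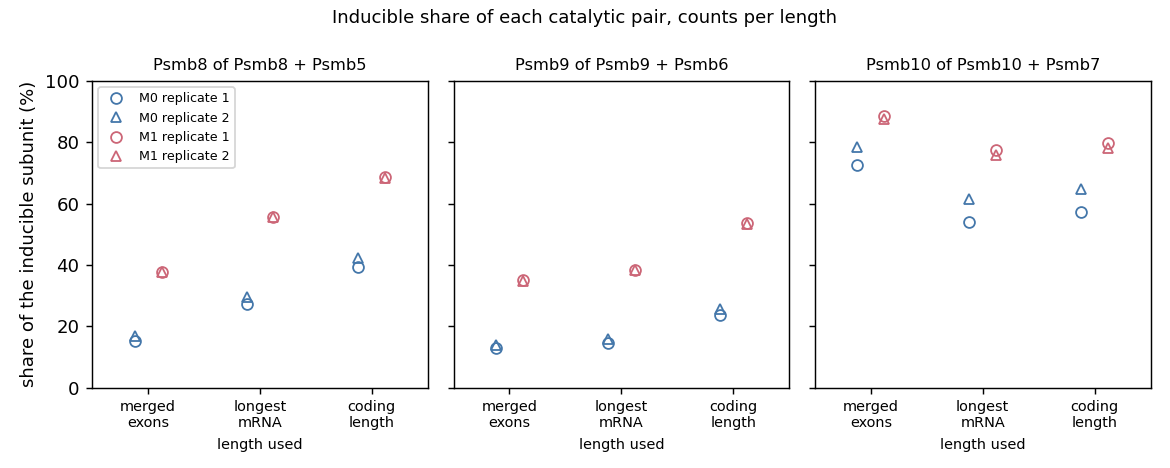
Inducible share (%) of each catalytic pair in counts per length in the 4 libraries, for 3 ways to measure gene length; circles are replicate 1, triangles replicate 2. On each length the M1 libraries lie above the M0 libraries, while the height of the share changes with the length, for Psmb8 in M1 from 37.7% on merged exons to 68.5% on coding length.

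The PA28αβ genes Psme1 and Psme2 rose 5.17-fold and 8.30-fold, and Psme2b, a copy of Psme2, rose 9.55-fold. The other activators, Psme3 and Psme4, rose by 0.35 and 0.50 on the log2 scale. Psme1 (chr14:55578123-55581529, plus strand), the α chain of PA28, measured 82.8 and 79.9 CPM in M0 and 431 and 410.4 CPM in M1, with no overlap. It rose 5.17-fold (log2 fold change 2.37, SE 0.10, 95% interval 2.15 to 2.59, edgeR adjusted p = 6.15e-09). Psme2 (chr14:55587441-55591113, minus strand), the β chain, lies close to it on the other strand and measured only 2.21 and 2.43 CPM in M0 and 16.1 and 22.4 CPM in M1. Psme2b (chr11:48945354-48946190, minus strand), a protein-coding copy of Psme2 on another chromosome, measured 69.8 and 71.5 CPM in M0 and 729 and 619.9 CPM in M1. Psme2 rose 8.30-fold (3.05, SE 0.25, adjusted p = 2.09e-06) and Psme2b 9.55-fold (3.26, SE 0.11, adjusted p = 1.72e-09), and in neither did the groups overlap. The transcript of Psme2 matches that of Psme2b at 97% identity or more over 82.5% of its length. Psme2b took 96.9%, 96.7%, 97.8% and 96.5% of their summed counts in M0 replicates 1 and 2 and M1 replicates 1 and 2. Which of these loci the reads came from is therefore uncertain. Their sum measured 72.0 and 73.9 CPM in M0 and 746 and 642 CPM in M1, a log2 fold change of 3.25 (edgeR adjusted p = 1.34e-09).

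Psme3 encodes PA28γ, a nuclear activator, and measured 144 and 134 CPM in M0 and 167 and 188 CPM in M1. Psme4 encodes PA200, which binds the ends of the core, and measured 139.8 and 138 CPM in M0 and 193 and 201 CPM in M1. The M1 libraries were the higher ones for both, without overlap. Psme4 rose by 0.50 on the log2 scale (SE 0.09, adjusted p = 0.00108) and Psme3 by 0.35 (SE 0.10, adjusted p = 0.0157, edgeR). The call for Psme3 was lost with upper-quartile factors, with library totals and without M0 replicate 1, M0 replicate 2 or M1 replicate 2.

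Among the alpha subunits, which form the gated outer rings, 7 of 8 were higher in M1, with a median log2 fold change of 0.97 over the 8. Psma6 rose most of this class and measured 139 and 148 CPM in M0 and 557 and 417 CPM in M1. The M1 libraries differ from each other but both lie well above M0, and the rise was 3.39-fold (log2 fold change 1.76, SE 0.13, 95% interval 1.47 to 2.06, edgeR adjusted p = 9.92e-07). The log2 fold changes of the others were 1.39 for Psma7, 1.12 for Psma4, 1.09 for Psma2, 0.85 for Psma1, 0.80 for Psma3 and 0.49 for Psma5. Psma8, known as the alpha subunit of the testis proteasome, was the exception at 7.62 and 6.55 CPM in M0 and 6.52 and 4.31 CPM in M1. Its log2 fold change of -0.39 (95% interval -1.02 to 0.24, adjusted p = 0.283) did not pass. Per kb of the longest RefSeq mRNA, the alpha subunits other than Psma8 spanned 10.5 (Psma3) to 138 CPM (Psma1 and Psma6) in M0 and 18.2 (Psma3) to 467 CPM (Psma6) in M1, although they are present in equal numbers in each ring. These levels depend on the length used. Per kb of merged exons they spanned 7.64 (Psma3) to 116 CPM (Psma6) in M0, with Psma1 at 56.3 CPM, and 13.3 (Psma3) to 395 CPM (Psma6) in M1.

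The beta subunits without a protease site, Psmb1 to Psmb4, complete the inner rings and were all higher in M1. Psmb4 measured 134 and 147 CPM in M0 and 333 and 278 CPM in M1. The groups did not overlap, and its log2 fold change was 1.12 (SE 0.11, edgeR adjusted p = 1.08e-05). Psmb3 followed at 1.11, Psmb2 at 0.93 and Psmb1 at 0.65. Across the 14 constitutive core subunits without Psma8, all 14 were higher, by 0.49 to 1.76 on the log2 scale with a median of 1.10. Without M0 replicate 1 the number higher was 11 of 14.

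Some of these levels are split between near-identical loci. Of the 49 genes, 8 shared at least 50 bases of their transcript at 97% identity with another locus, and a further 7 shared them only with a gene that overlaps them at the same locus. For 6 of the 8, which form 5 pairs because Psme2 and Psme2b are copies of each other, a copy with its own counts covered over 40% of the transcript. Psma5-ps, a processed pseudogene, took 81.0% and 82.3% of the summed Psma5 and Psma5-ps counts in M0 and 88.7% and 88.1% in M1. Psma5 itself went from 17.5 and 17.8 CPM in M0 to 27.1 and 22.6 CPM in M1. With the copy added, the values were 91.8 and 100.6 CPM in M0 and 239 and 189 CPM in M1, and the log2 fold change went from 0.49 (edgeR adjusted p = 0.0244) to 1.15 (adjusted p = 1.61e-05). Without the copy, the call of Psma5 was lost with upper-quartile factors, with library totals and without M0 replicate 1, M0 replicate 2 or M1 replicate 1. Gm4950 took 53.2% to 57.9% of the counts it shared with Psmb3, Gm3375 took 34.1% to 37.2% of those shared with Psmb5, and Gm9575 took 12.8% to 17.1% of those shared with Psmc1. With these copies added the log2 fold changes were 1.20 for Psmb3, 1.55 for Psmb5 and 1.00 for Psmc1, against 1.11, 1.58 and 0.95 without them. How the authors treated reads that match several loci is not given in the sources used here.

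**Figure D5:**
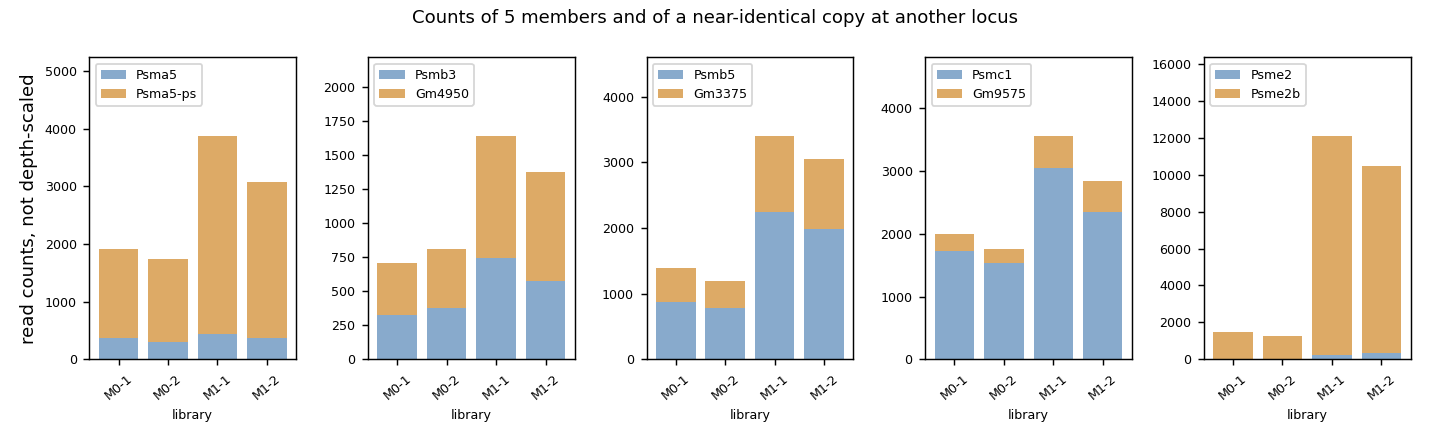
Read counts, not scaled for depth, of 5 proteasome genes and of a near-identical copy at another locus in each library, stacked. The copy holds over 80% of the counts for Psma5 and over 96% for Psme2, and under 18% for Psmc1.

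In the 19S cap, the ATPases Psmc1 to Psmc6 unfold substrates and thread them into the core, and all 6 were higher in M1. Psmc5 measured 82.7 and 94.4 CPM in M0 and 236 and 198 CPM in M1. The groups did not overlap, and its log2 fold change was 1.29 (SE 0.12, 95% interval 1.03 to 1.55, edgeR adjusted p = 4.65e-06). The log2 fold changes of the others were 1.23 for Psmc2, 1.11 for Psmc3, 1.01 for Psmc4, 0.95 for Psmc1 and 0.72 for Psmc6.

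Of the 14 Psmd genes, 12 were higher in M1 and 2 did not pass, with a median log2 fold change of 0.74. The scaffold subunits Psmd1 and Psmd2 and the ubiquitin receptor Psmd4 had log2 fold changes of 0.69, 0.86 and 0.87. Of the 8 lid subunits, which include the deubiquitinase Psmd14, 7 were higher, from Psmd3 at 1.11 and Psmd12 at 0.94 through Psmd7 at 0.80, Psmd14 at 0.75, Psmd11 at 0.73 and Psmd6 at 0.60 to Psmd13 at 0.51. Without M0 replicate 1 the number of lid subunits higher was 4. The lid subunit Psmd8 measured 168 and 179 CPM in M0 and 157 and 151 CPM in M1, so both M1 libraries lay below M0. Its log2 fold change of -0.17 (95% interval -0.38 to 0.04, adjusted p = 0.162, edgeR) did not pass. It was called lower with upper-quartile factors (-0.28, adjusted p = 0.0342) and with library totals (-0.42, adjusted p = 0.00313).

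Psmd5, Psmd9 and Psmd10 are chaperones that help to assemble the base and leave before the cap is complete. Psmd10, also called gankyrin (chrX:140948429-140956728, minus strand), measured 23.2 and 25.9 CPM in M0 and 95.9 and 92.8 CPM in M1. The groups did not overlap, and it rose 3.85-fold (log2 fold change 1.94, SE 0.12, 95% interval 1.68 to 2.21, edgeR adjusted p = 1.57e-07), the largest rise among the Psmc and Psmd genes. Psmd5 rose by 0.58 on the log2 scale, a call lost without M0 replicate 1 or M0 replicate 2. Psmd9 measured 15.4 and 17.7 CPM in M0 and 23.8 and 18.2 CPM in M1, and its log2 fold change of 0.34 did not pass (adjusted p = 0.143). It passed without M1 replicate 2.

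Pomp, the maturation protein that joins beta subunits to the half-built core, measured 101 and 113 CPM in M0 and 244 and 223 CPM in M1. It rose 2.18-fold without overlap (log2 fold change 1.13, SE 0.10, edgeR adjusted p = 4.81e-06). Psmg1 to Psmg4 encode the chaperones that build the alpha ring, and 2 of the 4 passed. Psmg3 measured 8.05 and 8.81 CPM in M0 and 16.1 and 10.3 CPM in M1. Its M1 libraries differ widely, and its log2 fold change of 0.65 (SE 0.24, adjusted p = 0.0447) fell to 0.29 (adjusted p = 0.392) without M1 replicate 1. Its call was also lost with upper-quartile factors, library totals, DESeq2, limma-voom and without either M0 library. Psmg2 rose by 0.57 on the log2 scale (adjusted p = 0.0106), a call lost with library totals and without M0 replicate 1, M0 replicate 2 or M1 replicate 1. Psmg1 went from 19.7 and 25.8 CPM to 37.5 and 24.1 CPM, the only gene of the 49 whose groups overlapped, and its log2 fold change of 0.44 did not pass (adjusted p = 0.108, edgeR). It passed with the replicate number as a block (adjusted p = 0.0479), with no low-count filter (0.0374) and without M1 replicate 2 (0.00567). Psmg4 measured 21.0 and 15.4 CPM in M0 and 22.0 and 23.2 CPM in M1, at a log2 fold change of 0.31 (adjusted p = 0.18).

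Psmf1, the inhibitor PI31, measured 22.9 and 25.3 CPM in M0 and 38.5 and 37.1 CPM in M1. It rose by 0.65 on the log2 scale (SE 0.13, adjusted p = 0.0022, edgeR) with no overlap of the groups, and the call was lost without M0 replicate 1.

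Genes that work around the proteasome were read from 4 lists of 44 counted genes, of which 43 were tested. Of these, 25 were higher in M1, 6 were lower and 12 did not pass, with a median log2 fold change of 0.47. Over all tested genes 24.2% were higher and 24.0% lower. Without M0 replicate 1 the number higher was 15, and with library totals the number lower was 10. In the list of proteasome-bound proteins and ubiquitin shuttles, 10 of 19 were higher and 3 lower. Rad23b, which carries ubiquitinated proteins to the cap, rose from 130 to 234 CPM (group means, log2 fold change 0.84). Ddi2, the protease that activates Nfe2l1, fell by 1.03 on the log2 scale, from 147 to 71.7 CPM (edgeR adjusted p = 2.31e-05), and Zfand2a fell by 0.87. The number higher in this list was 5 without M0 replicate 1, without M0 replicate 2 and with library totals.

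Among 7 regulators of proteasome and immunoproteasome genes, 4 were higher and 2 lower, the latter a share near that of all tested genes. Nlrc5, the class I transactivator, had a log2 fold change of 2.75 and Irf1 of 1.37. The stress factor Nfe2l1, known to drive proteasome genes when the proteasome is impaired, rose by 0.82, while Nfe2l2 fell by 0.75 and Irf8 fell by 0.93. Of the 8 ubiquitin and E1 genes, 7 were tested, 4 were higher and 1 (Rps27a, adjusted p = 0.0453) lower. DESeq2, limma-voom and the fits without M0 replicate 1 or M0 replicate 2 called 0 of them lower, and library totals 2. Uba7, the E1 enzyme of the ubiquitin-like protein ISG15, had a log2 fold change of 2.85, the main ubiquitin E1 Uba1 of 1.14 and the polyubiquitin gene Ubb of 0.68. The gene not tested was Ubd, which encodes the ubiquitin-like FAT10 and had counts in M1 replicate 1 alone.

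Downstream of the proteasome, 7 of 10 peptidase and transporter genes were higher and 0 lower with edgeR, DESeq2 and limma-voom, with 1 lower at an unadjusted p under 0.05. Tap1, between Psmb9 and Psmb8, measured 35.0 and 36.4 CPM in M0 and 456 and 459.6 CPM in M1, a log2 fold change of 3.68 (SE 0.10, edgeR adjusted p = 3.66e-10). Tap2 (chr17:34203527-34216321, plus strand), on the far side of Psmb8, measured 24.0 and 25.8 CPM in M0 and 154 and 161 CPM in M1, a log2 fold change of 2.66 (SE 0.11, adjusted p = 6.57e-09). The groups did not overlap for either. The 4 neighbours Psmb9, Tap1, Psmb8 and Tap2 thus had log2 fold changes of 2.75, 3.68, 3.24 and 2.66. Erap1, which trims peptides in the endoplasmic reticulum, rose by 0.84. The number higher in this list was 3 without M0 replicate 1, 4 without M0 replicate 2, and 4, with 2 lower, with library totals.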

How the data were processed

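Total RNA from 4 libraries was sequenced after removal of ribosomal RNA, per the labels' protocols. The authors deposited 1 file of whole-number read counts per gene symbol for each library, with no further normalization. The submitters' processing notes name featureCounts, Subread 2.0.1, DESeq2 1.30.1, R 4.0.4 and the mm10 build. The aligner, gene annotation, strand setting and treatment of multi-mapping reads are not given in the sources used here. Here the deposited counts were fitted with edgeR 4.0.16 in R 4.3.3: TMM factors, filterByExpr (minimum count 10, minimum total 15), quasi-likelihood test of M1 against M0, Benjamini-Hochberg adjustment over 12966 genes, threshold 0.05. The filter removed 5290 of 18256 genes. Within-group counts differed by more than sampling noise (chi-square over degrees of freedom 9.15 in M0, 13.3 in M1), a spread that may still be technical. All 4 libraries were kept as separate samples. The fit had 2 residual degrees of freedom. What edgeR names the biological coefficient of variation was 10.9% and rests on that same spread. The intervals of fold changes come from the same fit, with degrees of freedom that include those edgeR borrows across all tested genes. The script was run on simulated counts as a check.

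Loci and lengths come from GENCODE M21 (GRCm38), copies from a BLAST of transcripts (97% identity, at least 50 bases), promoters from RefSeq (GRCm38.p6). The members and gene lists were chosen with earlier results of these data known. Values in every library are given for Psmb5 to Psmb10, the Psme genes, Psmf1 and Pomp, and for the called gene with the largest change in each other class; of each partner list up to 3 called genes with the largest change are named, plus Tap1 and Tap2, and 1 gene of the regulator list is not reported here. The genes that did not pass, Psma5, the remaining fold changes, Rps27a, Nfe2l1, Nfe2l2 and Irf8 were chosen after their values were seen. Alternatives were DESeq2 1.42.0, limma-voom (limma 3.58.1), RLE factors, upper-quartile factors, plain library totals, no filter, a stricter filter, a replicate block and each library left out in turn. Crossing the replicate numbers and adding the counts of near-identical copies were added after seeing the data.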

Additional observations from a re-analysis of the deposited data

How the results depend on the processing

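Across the 49 genes and 13 alternatives no log2 fold change reversed its call, and 597 of 636 combinations kept call and direction. The number higher (44) ranged from 40 with library totals to 45 with no low-count filter or a replicate block, and from 32 to 45 with single libraries left out, where the lone library of an arm is assumed to vary like the other group. The number lower (0) was 1 with upper-quartile factors and 1 with library totals. The median of 0.93 was 0.68 with library totals and 0.85 to 0.98 with single libraries left out. Over all tested genes, library totals gave 2026 higher and 4776 lower, and leaving out a library gave 1691 to 2965 higher and 1463 to 2854 lower. The share of calls that were higher was 50.3% with TMM factors, 41.0% with upper-quartile factors and 29.8% with library totals. Partner genes higher (25) numbered 15 to 23 with a library left out, and those lower (6) numbered 5 to 6 then and 10 with library totals.

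The replicate numbers do not pair the libraries by any label, and the deviations of same-numbered libraries correlated at -0.143. With the replicate block 45 of the 49 were higher, 0 lower, and 2957 and 2975 of all tested genes were higher and lower. With the numbers crossed these were 45, 0, 3648 and 3627.

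The share of Psmb8 with Psmb5 in M0 and M1 was 28.5% and 55.7% on the longest mRNA, 40.8% and 68.5% on coding length, 41.9% and 69.5% with no length scaling and 10.9% and 28.3% with the copy of Psmb5 added. That of Psmb9 with Psmb6 was 15.1% and 38.3%, 24.6% and 53.4%, and 23.1% and 51.3% on the first 3 of these, and that of Psmb10 with Psmb7 57.7% and 76.7%, 61.0% and 79.1%, and 60.7% and 78.8%. Single libraries gave 15.3% to 16.8% (M0) and 37.6% to 37.7% (M1) for Psmb8, 12.8% to 13.9% and 34.9% to 35.2% for Psmb9, and 72.7% to 78.3% and 87.6% to 88.7% for Psmb10. The differences follow from the lengths and counts entered. With 2 libraries a group, intervals rest on 2 residual degrees of freedom a gene and on spread that edgeR shares across all tested genes. The low-count genes Psma8 and Psmg3 had standard errors of 0.28 and 0.24 on the log2 scale, and transcripts say nothing of the assembled particle.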
